A study of Danio rerio with 10 samples.

Results

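The AMPA receptor subunit genes of zebrafish are *gria1a*, *gria1b*, *gria2a*, *gria2b*, *gria3a*, *gria3b*, *gria4a* and *gria4b*. They were taken by gene name from the annotation deposited with the counts, and all 8 were found among the 25911 genes of the count table. AMPA receptors are glutamate-gated cation channels built from 4 subunits, and they carry most of the fast excitatory current at synapses of the vertebrate brain and spinal cord. Mammals have the subunits GluA1 to GluA4, and each has an a and a b copy among the zebrafish genes listed, left by the genome duplication of teleost fish. In mammals, GluA2 is known for RNA editing at the Q/R site of the pore, which makes receptors that contain it nearly impermeable to calcium. In the retina, the same channels receive photoreceptor glutamate in OFF bipolar and horizontal cells.

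RNA was measured in whole larvae of the AB background at 3 days post fertilization (dpf). The mutants were homozygous for *can4*, a mutation of *top2a* (*can4*-/-), and the controls were their wild type (WT) siblings from the same incross of heterozygous fish. Each genotype had 5 libraries, each a pool of 9 larvae genotyped one by one, so 45 larvae stand behind each genotype. Homozygous mutants are lethal, and maternal *top2a* mRNA may remain at this age. A count from whole larvae is a sum over all tissues, so fewer cells that express a gene and less RNA per cell cannot be told apart.

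The libraries held 30098991 to 38106622 counts in *can4*-/- larvae and 29281449 to 45544046 in WT larvae. A normalized count below is a gene's count divided by the library size after TMM scaling in edgeR, multiplied by the mean of these sizes. Of the 23039 genes that passed edgeR's filter on low counts, 36.9% were lower and 36.3% were higher in *can4*-/- larvae at a Benjamini-Hochberg adjusted p under 0.05 from edgeR's quasi-likelihood test, 73.2% in either direction. With library totals in place of TMM scaling, 5919 genes were higher and 10997 lower, against 8356 higher and 8505 lower with TMM. The targeted gene *top2a* had 675, 1358, 656, 635 and 688 normalized counts in *can4*-/- replicates 1 to 5, against 8498 to 9082 in WT. The library of *can4*-/- replicate 2 stood apart from the other mutant pools in *top2a*, and WT replicate 1 was the highest of the WT pools. The edgeR results below were therefore also computed without both. For the ratios and shares, libraries were left out only singly.

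Every AMPA receptor subunit gene was lower in *can4*-/- larvae. All 8 passed at an adjusted p under 0.05 in edgeR, where 36.9% of all genes tested were lower, and 7 of the 8 were lower by at least 2-fold, where the share of all genes was 11.9%. In all 8 the 5 mutant pools lay below the 5 WT pools, which held for 31.4% of all genes tested. The median log2 fold change of the 8 genes was -1.26, and that of all genes tested was 0.0027, with quartiles of -0.48 and 0.41. Without the 2 libraries that stood apart in *top2a*, all 8 remained lower, with a median of -1.29, a choice made after seeing the data. Summed over the 8 genes, the normalized count was 5902 ± 382 in *can4*-/- larvae and 14071 ± 414 in WT larvae (SD, n = 5 pools each), so that the mutants had 41.9% of the WT sum.

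**Figure D1:**
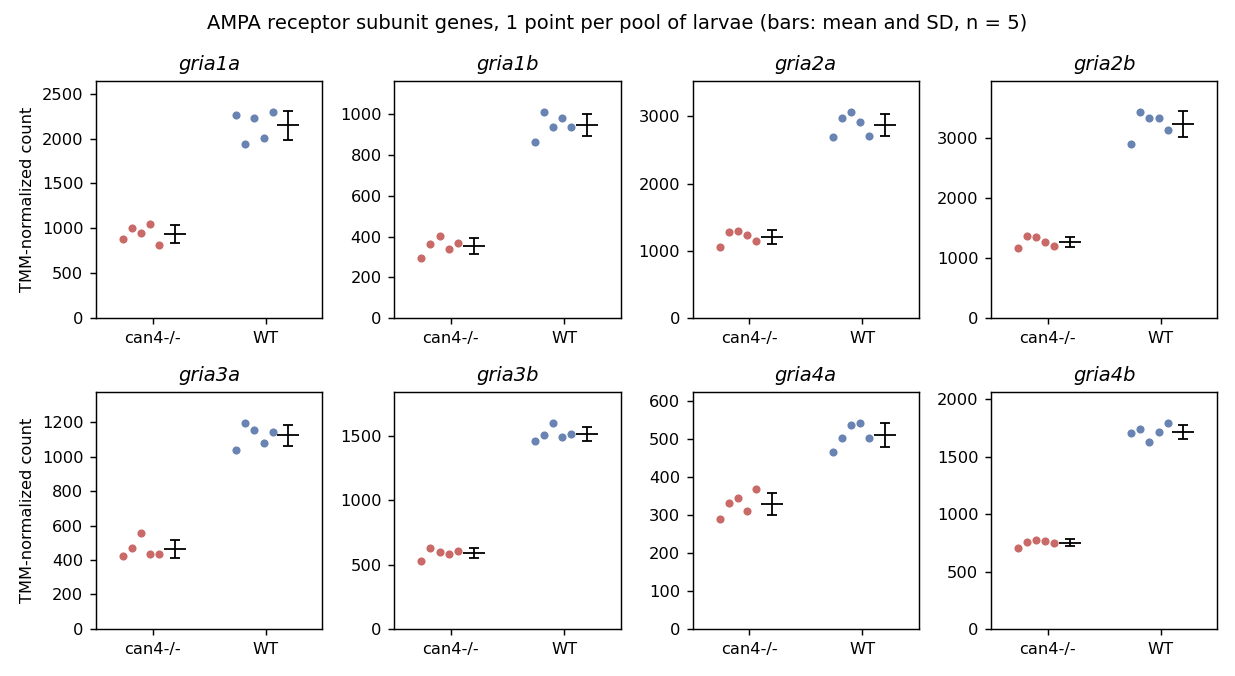
TMM-normalized counts (y axis, linear, from 0) of the 8 AMPA receptor subunit genes in each pool of 9 larvae. Each point is a pool, with *can4*-/- on the left and WT on the right of each panel, and the bars give the mean and SD of 5 pools. In every panel the mutant points lie below the WT points, and the gap is smallest for *gria4a*, with a mutant mean of 328 and a WT mean of 509.

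The GluA1 genes encode the subunit that in mammals is recruited to synapses during potentiation. In the GRCz11 build the a copy, *gria1a*, spans 34125855 to 34276574 of chromosome 14, and the b copy, *gria1b*, spans 26152332 to 26250744 of chromosome 21. The normalized count of *gria1a* was 877, 1000.3, 944, 1052 and 810.1 in *can4*-/- replicates 1 to 5, against 2266, 1939, 2226, 2009.8 and 2296 in WT replicates 1 to 5. Every mutant pool lay well below the lowest WT pool. The edgeR fit put the change at -1.20 on the log2 scale, with an SE of 0.072 (adjusted p = 3.96e-09). For *gria1b* the counts were 297, 365, 401, 339 and 371 in *can4*-/- pools, against 867, 1012, 938, 983 and 939 in WT pools. The mutant mean was 37.4% of the WT mean, the lowest of the 8 genes. On the log2 scale this was -1.42 with an SE of 0.073 (edgeR adjusted p = 9.42e-10).

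The GluA2 genes encode the subunit whose editing sets the calcium permeability of the receptor in mammals. In these libraries, *gria2a* (chromosome 1, 21333068 to 21409877) had 1064, 1281, 1300.0, 1241 and 1143 normalized counts in *can4*-/- replicates 1 to 5, against 2690.3, 2982, 3065, 2914 and 2706 in WT replicates 1 to 5. The groups did not overlap and edgeR gave -1.25 on the log2 scale, SE 0.060 (adjusted p = 4.84e-10). The other copy, *gria2b* (chromosome 14, 35748206 to 35813662), had 1166, 1365, 1348, 1266 and 1210.3 in *can4*-/- pools, against 2913, 3440.3, 3345, 3346 and 3140.5 in WT pools. WT replicate 1 was the lowest of the WT pools, still far above every mutant pool. The change was -1.35 on the log2 scale, SE 0.057 (edgeR adjusted p = 1.71e-10). The whole of *gria2b* lies within the span of *pdgfc*, a growth factor gene on the opposite strand. That gene went the other way, with 753 normalized counts in *can4*-/- larvae and 583 in WT larvae on average (0.37 on the log2 scale, edgeR adjusted p = 1.88e-05).

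GluA3 is a subunit that in the mammalian forebrain is mostly found together with GluA2. The normalized count of *gria3a* (chromosome 5, 23353570 to 23429228) was 424, 467, 558, 437 and 436 in *can4*-/- replicates 1 to 5, against 1042, 1198, 1155, 1079 and 1146 in WT replicates 1 to 5. *can4*-/- replicate 3 was above the other mutant pools, and no pool overlapped with WT. In edgeR this was a change of -1.27 on the log2 scale, SE 0.073 (adjusted p = 2.40e-09). For *gria3b* (chromosome 14, 12533560 to 12837432) the counts were 529.9, 627, 599, 585 and 605 in *can4*-/- pools, against 1459.5, 1509, 1605, 1494 and 1515 in WT pools. Both groups were tight, with coefficients of variation of 6.19% and 3.55%. Here edgeR gave -1.36 on the log2 scale, SE 0.050 (adjusted p = 4.73e-11).

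GluA4 is known in mammals as a subunit of early development, of auditory and cerebellar circuits and of fast-spiking interneurons. The normalized count of *gria4a* (chromosome 15, 44499187 to 44810137) was 290.0, 331, 343, 309.8 and 367 in *can4*-/- replicates 1 to 5, against 464, 501, 537, 542 and 501 in WT replicates 1 to 5. The mutant mean was 64.4% of the WT mean, where the other 7 genes had 37.4% to 43.8%. For *gria4a* edgeR gave -0.63 on the log2 scale, SE 0.071 (adjusted p = 2.10e-06), a decrease that 20.2% of all genes tested exceeded. For *gria4b* (chromosome 21, 21894067 to 22082510) the counts were 701, 761, 777, 769.7 and 748 in *can4*-/- pools, against 1709, 1745, 1628, 1711 and 1797 in WT pools. It varied little among pools, with coefficients of variation of 4.02% in *can4*-/- and 3.58% in WT. The change was -1.19 on the log2 scale, SE 0.044 (edgeR adjusted p = 4.73e-11), and 8.43% of all genes tested had a larger decrease. The span of *gria4a* also holds other annotated genes on the same strand. Of these, *zgc:165508* had 101 normalized counts in *can4*-/- larvae and 172 in WT larvae on average, and *CABZ01061894.1* had 139 in *can4*-/- larvae and 95.5 in WT larvae. Reads shared by genes on the same strand cannot be told apart by strand. The libraries were stranded, but how strand was treated in counting is not stated. The same may therefore hold for overlapping genes on opposite strands. Such pairs include *gria2b* with *pdgfc* and *gria1a* with the antisense gene *BX537115.1*.

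Whether the copies of a subunit fell to the same degree was asked with the log2 ratio of the a copy to the b copy in each pool, in which the library size cancels. Of the 4 pairs compared, GluA4 differed between genotypes with no overlap. The log2 ratio of *gria4a* to *gria4b* was -1.27, -1.20, -1.18, -1.31 and -1.03 in *can4*-/- replicates 1 to 5, against -1.88, -1.80, -1.60, -1.66 and -1.84 in WT replicates 1 to 5. The difference was 0.56 (standard error 0.073, n = 5 pools each, two-sided exact permutation test, p = 0.00794, the smallest that this design allows). The span of *gria4a* holds other genes on the same strand, and their part in its count was not tested. For *gria2a* over *gria2b* the ratio averaged -0.08 ± 0.040 in *can4*-/- and -0.17 ± 0.048 in WT (SD), a small difference of 0.09 (standard error 0.028, n = 5 each, exact permutation test, p = 0.0238), and the pools of the genotypes overlapped. The ratio of *gria1a* to *gria1b* ranged from 1.13 to 1.63 in *can4*-/- pools and from 0.94 to 1.39 in WT pools. That difference, 0.22 (standard error 0.13), did not pass (n = 5 each, exact permutation test, p = 0.119). For *gria3a* over *gria3b* the difference was 0.08 (standard error 0.072, n = 5 each, exact permutation test, p = 0.310). Without *can4*-/- replicate 3, the mutant pool with the most *gria3a*, it was 0.023 (n = 4 against 5, exact permutation test, p = 0.611). The a copy had the smaller fitted decrease in all 4 pairs, including the pairs that did not pass. The tests of the 4 pairs were not adjusted for the number of comparisons.

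**Figure D2:**
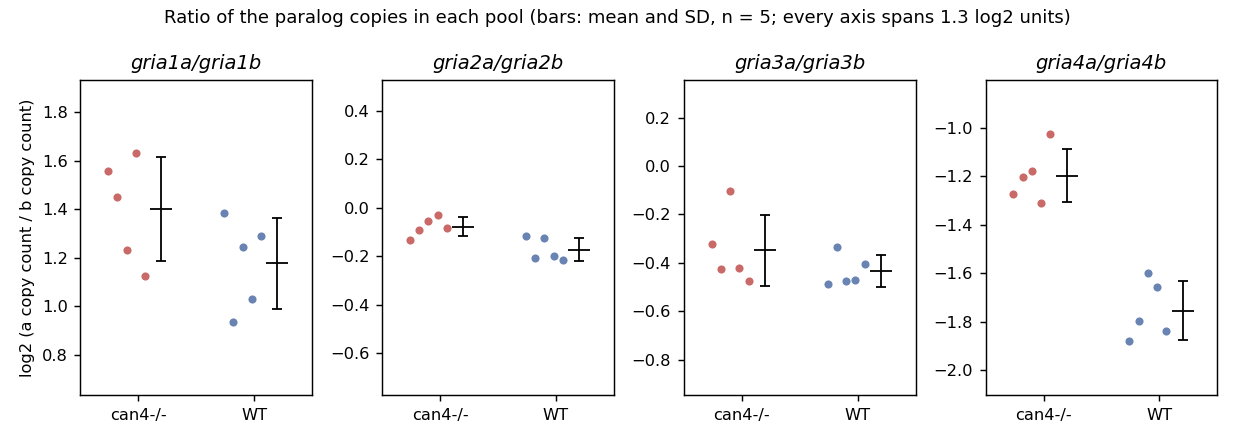
Log2 ratio of the a copy count to the b copy count (y axis) in each pool, for the 4 pairs of AMPA receptor subunit genes, with *can4*-/- left of WT and bars for the mean and SD of 5 pools. The axes span equal ranges. The *gria4a* to *gria4b* ratio of every mutant pool (-1.31 to -1.03) lies above that of every WT pool (-1.88 to -1.60), and the points of the other pairs overlap.

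The make-up of the family followed from these differences. As a share of the counts of all 8 genes, *gria4a* held 5.57% ± 0.508 in *can4*-/- pools and 3.62% ± 0.160 in WT pools (SD, n = 5 each, two-sided exact permutation test, p = 0.00794). The shares of *gria1b*, *gria2b* and *gria3b* differed by -0.732, -1.45 and -0.784 percentage points, lower in the mutants (exact permutation test, p = 0.0238 each, n = 5 pools), with overlap between the pools. Those of *gria1a*, *gria2a*, *gria3a* and *gria4b* did not pass (exact permutation test, p = 0.135 to 0.968, n = 5 pools). These 8 shares sum to the whole and were not adjusted for the number of comparisons. A share of counts depends on gene length, so it compares genotypes within a gene and does not rank the genes against each other. The GluA2 copies together held 42.0% ± 0.521 of the counts in *can4*-/- pools and 43.4% ± 1.54 in WT pools (SD, n = 5 each).

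Within a genotype, the subunit genes tended to be low in the same pools. *can4*-/- replicate 1 was the lowest mutant pool for 7 of the 8 genes, all but *gria1a*, and WT replicate 1 was the lowest WT pool for 6 of the 8, all but *gria1a* and *gria4b*. The summed count of the neuron markers was also lowest in these pools, with 83004 normalized counts in *can4*-/- replicate 1, where the other mutant pools had 88008 to 93285, and 166396 in WT replicate 1, where the other WT pools had 168399 to 176716. *can4*-/- replicate 2, the pool with more *top2a*, was the highest mutant pool for *gria2b* and *gria3b* only. The share of all genes tested that were lowest in each pool was not computed. All genes of a library share its scaling, so a shift of the whole library was not separated from a shift of these genes.

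Markers of neurons, which express AMPA receptors, were lower in the same libraries. Of 38 neuron markers tested, 33 were lower, 3 were higher and 2 did not pass at an adjusted p under 0.05 in edgeR. Of all genes tested, 36.9% were lower and 36.3% higher. The median of the neuron markers was -0.95 on the log2 scale. No marker was at 0, and their summed normalized count was 83004 to 93285 in *can4*-/- pools and 166396 to 176716 in WT pools, so the mutants had 52.5% of the WT sum. The synaptic fusion genes *stxbp1b* and *snap25b* were among the lower ones, *stxbp1b* with 184 ± 62.3 normalized counts in *can4*-/- and 1960.1 ± 155 in WT, and *snap25b* with 1068 ± 73.9 in *can4*-/- and 3373 ± 160.0 in WT (SD, n = 5). The light neurofilament genes *neflb* and *nefla* were higher, with log2 fold changes of 0.44 each.

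Set against the summed neuron markers of the same pool, 7 of the 8 subunit genes were lower in *can4*-/- larvae, and *gria4a* was higher. The share of all genes tested that were lower in this measure was not computed. The largest counts in the marker sum were those of *tubb5*, with 8834 ± 675 in *can4*-/- and 15810 ± 830 in WT (SD, n = 5; log2 fold change -0.84). The differences of the log2 ratio were -0.49 for *gria1b* (standard error 0.057), -0.43 for *gria3b* (standard error 0.035), -0.42 for *gria2b* (standard error 0.040), -0.35 for *gria3a* (standard error 0.060), -0.32 for *gria2a* (standard error 0.044), -0.27 for *gria1a* (standard error 0.082) and -0.26 for *gria4b* (standard error 0.022). In the same measure *gria4a* stood at 0.30 (standard error 0.066). For 7 genes the pools of the genotypes did not overlap (two-sided exact permutation test, p = 0.00794 each, n = 5 pools), and for *gria1a* they did (p = 0.0159, exact permutation test). The former p is the smallest that this design allows, and the tests of the 8 genes were not adjusted for the number of comparisons. The outcome depends on the marker. With the RNA-binding protein gene *elavl3* alone, which itself had a log2 fold change of -1.17 (standard error 0.071), the 7 differences were -0.24 to -0.013 and none passed (exact permutation test, p = 0.0556 to 0.849, n = 5 pools), while that of *gria4a* was 0.54 (p = 0.00794). What part the amount of neurons has in the decrease was not tested, and these ratios do not measure it.

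**Figure D3:**
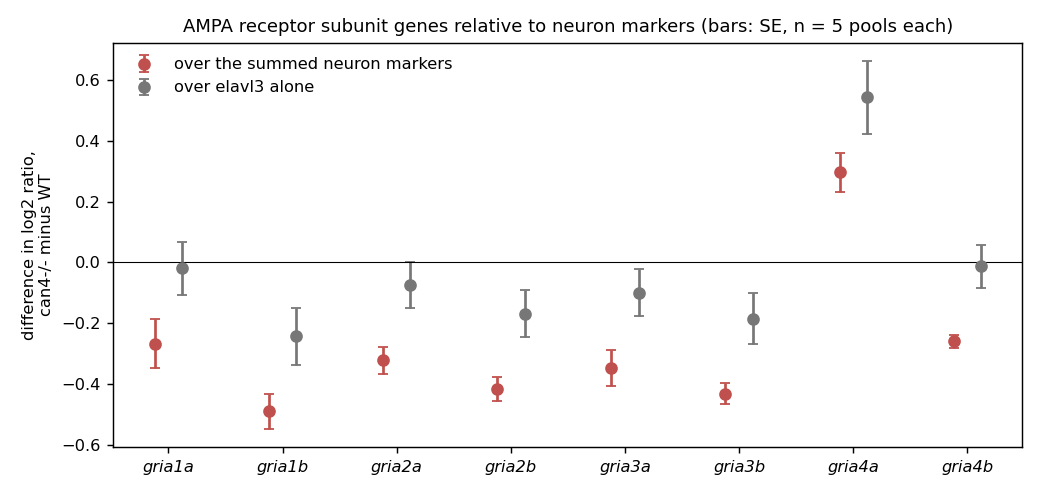
Difference between *can4*-/- and WT pools in the log2 ratio of each AMPA receptor subunit gene to the summed count of 38 neuron markers (red) or to *elavl3* alone (grey). Points give the mean of 5 mutant pools minus that of 5 WT pools, bars the standard error. Against the sum, 7 genes lie between -0.49 and -0.26 and *gria4a* at 0.30, and against *elavl3* the 7 genes lie closer to 0.

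Marker lists of other cell types also held genes that passed, not all of them for cells that carry AMPA receptors. The shares of all genes tested were 36.9% lower, 36.3% higher and 73.2% in either direction. Of 26 inner retina neuron markers 25 were lower and 1 was higher in edgeR (median log2 fold change -1.60), among them the bipolar cell transcription factor gene *vsx1*, with 193 ± 182 normalized counts in *can4*-/- and 3037 ± 308 in WT (SD, n = 5). The summed count of this list was 30393 to 33012 in *can4*-/- pools and 44359 to 48995 in WT pools. The largest counts in it were those of *slc6a9*, the marker that was higher, with 14273 ± 577 in *can4*-/- and 9855 ± 609 in WT. The Purkinje cell list, for the cells of the cerebellar cortex, had 12 of 14 markers lower and 1 higher (median -1.11), and its sum was 14194 to 15600 in *can4*-/- pools and 20028 to 20969 in WT pools. Here the largest counts were those of *foxp4*, which did not pass, with 8858 ± 317 in *can4*-/- and 9381 ± 463 in WT. This gene was picked out after its values were seen. The gene *lhx1a* is in both the Purkinje cell and the inner retina list. Radial glia markers were divided, with 11 lower and 5 higher of 16 and a sum of 61358 to 66418 in *can4*-/- pools and 68343 to 70279 in WT pools. The largest mutant counts in this list were those of *glulb*, which was higher, with 18262 ± 2019 in *can4*-/- and 8491 ± 334 in WT. The largest WT counts were those of *fabp7a*, which was lower, with 10880 ± 431 in *can4*-/- and 18159 ± 760 in WT. Among the glutamate transporter genes of the radial glia list, *slc1a2a*, *slc1a2b* and *slc1a3a* were lower (log2 fold changes -4.84, -1.81 and -0.21). The remaining one, *slc1a3b*, was higher (1.72). Of 12 oligodendrocyte lineage markers 8 were lower and 1 was higher, the sum being 7131 to 7870 in *can4*-/- pools and 8350 to 9001 in WT pools. Photoreceptor markers, the presynaptic side of the first visual synapse, were lower in 24 of 24 cases with a median of -5.40, and their sum was 1332 to 2587 in *can4*-/- pools and 71076 to 118342 in WT pools. The skeletal muscle list, by contrast, had 19 of 21 markers higher and none lower (median 0.57), and its sum was 1222070 to 1423180 in *can4*-/- pools and 763364 to 883706 in WT pools. None of these lists had a marker at 0 in all libraries. The part of each of these in the subunit counts was not tested.

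The genes for auxiliary subunits, which in mammals set the gating and the surface delivery of AMPA receptors, fell along with the pore-forming subunits. Of 23 tested, 22 were lower, none was higher and 1 did not pass at an adjusted p under 0.05 in edgeR. Among all genes tested, 36.9% were lower and 36.3% higher. The median change of the auxiliary list was -1.10 on the log2 scale. In this list the largest decreases at a mean of 100 or more normalized counts were those of *cnih3*, a cornichon gene, with 52.0 ± 3.72 in *can4*-/- and 163 ± 15.9 in WT (SD, n = 5; log2 fold change -1.64), *shisa9a*, whose mouse counterpart is CKAMP44, with 149 ± 13.1 in *can4*-/- and 412 ± 33.9 in WT (-1.46), and *cacng3b*, a TARP gene, with 314 ± 24.9 in *can4*-/- and 810.5 ± 37.4 in WT (-1.37). The gene that did not pass was *cacng5b*, at -0.43 (standard error 0.22, adjusted p = 0.0877 from edgeR). The summed count of the list in the mutants was 45.8% of that in WT.

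The genes for assembly, trafficking and anchoring of AMPA receptors were mostly lower. Of 30 tested, 27 were lower, 2 were higher and 1 did not pass, with a median log2 fold change of -1.08. The shares of all genes tested were 36.9% lower and 36.3% higher. The summed count of the 30 genes in the mutants was 64.8% of that in WT. The largest decreases at 100 or more normalized counts were in *porcn*, which encodes an acyltransferase for Wnt proteins that binds AMPA receptors in mammals (log2 fold change -1.65), *olfm1a*, an olfactomedin gene (-1.47), and *nptxra*, a neuronal pentraxin receptor gene whose mammalian product gathers AMPA receptors at synapses (-1.40). The genes that rose were *cpt1cb*, of the carnitine palmitoyltransferase family, with 1392 ± 60.7 normalized counts in *can4*-/- and 787 ± 60.6 in WT (SD, n = 5; 0.82 on the log2 scale, edgeR adjusted p = 1.29e-08), and *nsfb*, a copy of the membrane fusion ATPase NSF, at 0.48. The other copy, *nsfa*, chosen after its values were seen, stood at -1.10. All 4 genes of the ADAR family, which holds the RNA-editing deaminases, were lower, and their summed count in the mutants was 66.6% of that in WT. The decrease was largest in *adarb1a* (log2 fold change -1.09), then in *adarb1b* (-0.70) and *adarb2* (-0.63). In mammals ADARB1 is the enzyme that edits the Q/R site, and editing itself was not measured. Of 14 genes for calcium/calmodulin kinase II, protein kinase C and A-kinase anchoring proteins, 10 were lower, 2 were higher and 2 did not pass (median -0.65). This kinase and anchoring list lacks *akap5*, which had no single row in the count table. Among all genes tested, 73.2% passed in either direction. The summed count of the kinase and anchoring list in the mutants was 96.7% of that in WT. The largest counts in it were those of *akap12b*, with 21780 in *can4*-/- and 16429 in WT on average. The anchoring protein genes *akap12a* and *akap12b* stood at -2.33 and 0.41, *camk2d2* at -1.46, the neuronal kinase gene *camk2a* at -1.29 and *camk2d1* at 0.19.

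The kainate and NMDA receptor genes are close relatives of the AMPA receptor genes. All 4 kainate receptor genes tested were lower (median log2 fold change -1.23), and of 12 NMDA receptor genes 10 were lower, 1 was higher and 1 did not pass (median -0.95). Among all genes tested, 36.9% were lower and 36.3% higher. The summed normalized count in *can4*-/- larvae, as a percentage of that in WT larvae, was 41.9% for AMPA, 40.3% for kainate and 43.9% for NMDA receptor genes. The differences between these families were not tested. The kainate sum lacks *grik2* and *grik3*, and the NMDA sum lacks *grin2ba*, since these had no single row in the count table. All 8 AMPA genes are in their sum. The 8 AMPA genes ranged from -1.42 to -0.63 on the log2 scale, and the kainate genes from *grik1b* at -3.10 to *grik5* at -0.90. In the NMDA family *grin2ab* stood at -2.08, *grin1b* at -1.56 and *grin2cb* at -1.36. At the other end was *grin3bb*, with 149 normalized counts on average in *can4*-/- and 117 in WT (n = 5; 0.35 on the log2 scale, edgeR adjusted p = 0.0363), a call lost without *can4*-/- replicate 2 or 3, or without WT replicate 1, 2 or 5. The kainate genes *grik1a* and *grik4* had log2 fold changes of -1.54 and -0.92.

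**Figure D4:**
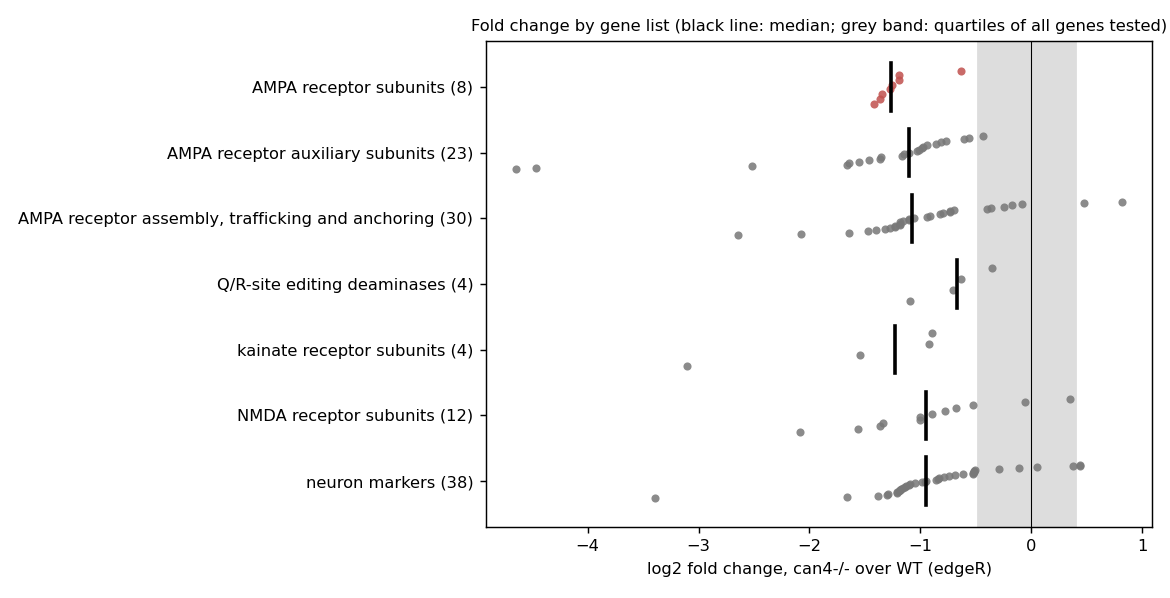
Log2 fold change of each tested gene (x axis, *can4*-/- over WT) by gene list, with the number of genes in brackets, the median as a black line and the quartiles of all 23039 genes tested (-0.48 to 0.41) as a grey band. The AMPA receptor subunit genes (red) lie between -1.42 and -0.63, and every one of the 8 is to the left of the band.

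The genes most like each subunit gene in their profile over the 10 libraries were sought among 14429 other named genes with a mean of at least 100 normalized counts. Likeness was the root mean square difference of log2 CPM, with each gene centred on its WT mean, so it is mostly set by the fold change. The nearest genes were *mpped2* for *gria1a* (difference 0.065), *epha6*, an Eph receptor gene, for *gria1b* (0.063), *syt2a*, a synaptotagmin gene, for *gria2a* (0.047) and *UNC13A*, a synaptic vesicle priming gene, for *gria2b* (0.049). For the others they were *kcnd2*, a potassium channel gene, for *gria3a* (0.055), *amph*, the endocytosis gene amphiphysin, for *gria3b* (0.052), *THEM6* for *gria4a* (0.044) and *cdh10a*, a cadherin gene, for *gria4b* (0.036). Among the subunit genes the closest pair was *gria2b* and *gria3b* (0.066), and the farthest *gria1b* and *gria4a* (0.56).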

How the data were processed

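The authors aligned the reads of rRNA-depleted, stranded total RNA libraries with STAR (2.7.0f, build GRCz11, per the labels) and deposited raw counts per gene of Ensembl release 96, with no normalization. Neither the counting program nor the treatment of strand is stated. The authors' DESeq2 (1.24.0) comparison, which holds fold changes and p-values, and their normalized and rlog values were not used. Raw counts were analysed in R 4.3.3 with edgeR 4.0.16 (filterByExpr with a minimum count of 10 and total of 15, TMM, quasi-likelihood test, genotype as the only term), with Benjamini-Hochberg adjustment over 23039 genes. Standard errors (SE) of fitted changes were taken as |log2 change| / sqrt(F). Ratios used counts plus 0.5. The edgeR script was tested on simulated data. List genes without a single row in the count table were left out. Replicates differed by more than sampling noise (chi-square per degree of freedom 4.63 to 25.8). Genes were named mainly by a fixed rule: the 8 members, *top2a*, the largest changes of each list at a mean of 100 or more normalized counts, and the nearest profile of each member. Not every gene picked by the rule is named. Others, among them *slc1a3a*, *fabp7a*, *grik5*, *cacng5b* and the genes that overlap a member, were named outside it. The alternatives were DESeq2 1.42.0, limma 3.58.1 voom, RLE factors, library totals, other filters, a replicate block, other denominators and pseudocounts, and leaving out each library. The members and lists were chosen with earlier results of these data known. A further list of related receptor genes is not reported here.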

Additional observations from a re-analysis of the deposited data

How the results depend on the processing

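All 8 AMPA receptor subunit genes were lower at an adjusted p under 0.05 with DESeq2, limma voom, RLE factors, library totals, no filter, the stricter filter of 50 counts and without any one library, with an adjusted p of at most 1.80e-05 in any of these or with the block. The median log2 fold change of the 8 was -1.44 with library totals, a scaling that shifts all genes by a median of -0.17, and -1.31 to -1.23 without any one library. No pairing of replicate numbers was seen (correlation of same-numbered pools -0.022 to 0.033), and with the replicate block all 8 genes stayed lower and 8179 genes in all were higher and 8344 lower. Against *elavl3* in place of the summed neuron markers, the differences were -0.020 for *gria1a*, -0.24 for *gria1b*, -0.075 for *gria2a*, -0.17 for *gria2b*, -0.10 for *gria3a*, -0.19 for *gria3b* and -0.013 for *gria4b*, none past the threshold. The cause was not tested. Without any one library, the difference in share ranged from -0.860 to -0.622 percentage points for *gria1b* (p up to 0.0556, exact permutation test), from -1.76 to -1.19 for *gria2b* (p up to 0.0556, exact permutation test), from -0.269 to 0.197 for *gria2a* and from -0.381 to 0.0210 for *gria3a*. Thus the calls for the shares of *gria1b* (without WT replicate 2, 4 or 5) and *gria2b* (without *can4*-/- replicate 4 or 5) each rest on single pools. The difference in the log2 ratio of the copies ranged from 0.16 to 0.29 for GluA1, 0.082 to 0.11 for GluA2, 0.023 to 0.12 for GluA3 and 0.51 to 0.60 for GluA4. Among the small counts of higher genes, with library totals the kinase and anchoring list had 1, the NMDA list 0 and the oligodendrocyte list 0, and 2 muscle markers were lower. The NMDA count was also 0 without both libraries that stood apart, an alternative chosen after seeing the data, and 0 to 1 without any one library. The oligodendrocyte count was 0 with the replicate block and 0 to 2 without any one library (0 without *can4*-/- replicate 1 or 5 or WT replicate 2 or 5, and 2 without *can4*-/- replicate 3). Shares per coding length were not run, since coding lengths were not used here. The subunit genes had 232 to 4610 raw counts per library.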
